A study of Homo sapiens with 18 samples.

Results

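The genes described here are 35 transcriptional targets of p53, taken as a list of symbols and matched to the Ensembl identifiers of the count tables, which list 62703 genes in all. Each of the 35 symbols matched 1 identifier. Their levels were read in 18 RNA-seq libraries of human multiple myeloma, a cancer of plasma cells. The 3 cell lines carry the labels AMO1, H929 and LP1. In each line, 3 libraries carried the label of a NEAT1 gapmeR (gN1E) and 3 that of a scrambled gapmeR (SCR), given to the cells without a carrier (gymnosis) for 48 h. GapmeRs are antisense oligonucleotides through which RNase H cuts a complementary RNA, and the cells of every library, controls included, were given one. Replicates carried the letters A, C and D in AMO1, A, B and C in H929, and A, B and D in LP1, and values below follow that order. The labels do not say whether the replicates of a group came from separate cultures, so the p-values measure the spread between these libraries. They are bulk libraries, in which fewer cells with a transcript and less transcript per cell cannot be told apart.

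p53 is a transcription factor that is held low by MDM2 and is stabilised by DNA damage and other stress. It then raises genes that stop the cell cycle, repair DNA, change metabolism or start cell death, and among its targets are its own inhibitors, which close a feedback loop.

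p53 binds DNA as a tetramer at a pair of half-sites, each of which follows a loosely defined consensus of 10 bases. The exact p53 half-site consensus, which reads the same on both strands, was searched in the RefSeq promoter windows of GRCh38.p14 (hg38), from 250 bases before to 50 bases after each start. Of the 35 genes, 29 had a window and 6 of those 29 (20.7%) held a half-site, against 8.06% of the 27305 genes with a window. By window rather than by gene, 6 of 45 (13.3%) held one, against 6.63% of 35116 windows. These 6 were FDXR, DDB2, FAS, SESN1, AEN and PLK2. DDB2 was the only one of the 29 with a pair of half-sites, 1 base apart, a feature of 10 of the 27305 genes (0.0366%). A match describes these letters only and is not a measured binding site. The windows of FDXR and DDB2 are shown because these genes moved with the gapmeR label below, DDB2 past the threshold of the per-line fits in H929 only. That of FAS is shown because its level differed most between lines among genes with over 1 CPM in every library. FAS, SESN1, AEN and PLK2 passed in no per-line fit. CDKN1A, CCNG1, BBC3, TIGAR and SESN2 passed in 1 line or more and had no half-site in their windows. A link between half-site and change was not tested. Half-sites are in capitals. The windows are chr17:74872945-74873244 on the minus strand for FDXR, with the half-site starting 11 bases before the start, chr11:47214724-47215023 on the plus strand for DDB2, with the first half-site at base 6 of the transcript, and chr10:88991181-88991480 on the plus strand for FAS, with the half-site starting 122 bases before the start.
FDXR: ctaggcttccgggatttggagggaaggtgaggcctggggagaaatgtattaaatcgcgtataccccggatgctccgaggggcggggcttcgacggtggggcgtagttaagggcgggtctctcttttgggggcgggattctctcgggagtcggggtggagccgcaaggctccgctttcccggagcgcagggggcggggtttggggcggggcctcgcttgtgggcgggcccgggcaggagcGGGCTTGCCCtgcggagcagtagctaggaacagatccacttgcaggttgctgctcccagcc
DDB2: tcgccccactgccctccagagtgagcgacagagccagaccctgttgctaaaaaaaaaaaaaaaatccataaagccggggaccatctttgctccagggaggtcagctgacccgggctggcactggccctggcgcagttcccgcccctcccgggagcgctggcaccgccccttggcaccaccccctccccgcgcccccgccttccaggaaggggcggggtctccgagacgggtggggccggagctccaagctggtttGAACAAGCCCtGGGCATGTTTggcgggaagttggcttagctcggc
FAS: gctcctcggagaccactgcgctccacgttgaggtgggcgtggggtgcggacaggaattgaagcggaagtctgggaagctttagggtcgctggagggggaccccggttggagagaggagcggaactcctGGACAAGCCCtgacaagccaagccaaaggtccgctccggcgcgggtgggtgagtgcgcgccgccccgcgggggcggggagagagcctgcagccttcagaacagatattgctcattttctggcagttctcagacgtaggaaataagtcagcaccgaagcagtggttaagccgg

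NEAT1 (chr11:65422774-65445540), the long non-coding RNA that the gapmeR was designed to lower, was higher in the libraries labelled gN1E in every line. Levels are CPM values (counts relative to the library total), scaled over all 18 libraries by edgeR's TMM method. In AMO1, NEAT1 stood at 75.7, 78.8 and 90.8 CPM under SCR and at 473, 553 and 517 CPM under gN1E. In H929 the values were 79.8, 72.7 and 79.1 CPM under SCR and 554, 464 and 542 CPM under gN1E, and in LP1 they were 135, 173 and 189 CPM under SCR and 656, 667 and 829 CPM under gN1E. The labels did not overlap in any line, and a two-sided exact permutation test gave p = 0.1 for each line, its lower limit for 3 against 3 libraries. The log2 fold change, gN1E minus SCR, was 2.66 ± 0.074 (SE) in AMO1, 2.74 ± 0.068 in H929 and 2.14 ± 0.19 in LP1, with edgeR adjusted p = 5.1e-13, 3.11e-14 and 0.0269. In LP1 the edgeR call was lost when SCR B (adjusted p = 0.176), gN1E A (0.111), gN1E B (0.0886) or gN1E D (0.0578) was left out, with log2 fold changes from 2.00 to 2.25. NEAT1 thus goes against the label. In the deposited tables the column names swap the gapmeR labels, and they also swap H929 and LP1. Each library is called by its sample label, "gN1E" and "SCR" stand for libraries so labelled, and libraries labelled gN1E are those with high NEAT1.

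The total count per library ran from 28061606 to 69937229, and in AMO1 the libraries labelled gN1E (28061606 to 49784737) lay below those labelled SCR (53227560 to 66142827). The plasma cell markers SDC1, TNFRSF17, XBP1, IRF4, PRDM1, MZB1, CD38 and SLAMF7 had reads in every library, with a summed level of 12363 to 14533 CPM in AMO1, 14560 to 17637 in H929 and 7119 to 7646 in LP1. Most of the sum in AMO1 and H929 was SDC1 (9717 to 11700 and 11514 to 14346 CPM, against 1200 to 1401 in LP1). CD38 was also lowest in LP1, whereas TNFRSF17, XBP1, IRF4, PRDM1, MZB1 and SLAMF7 were highest there. Summed fibroblast markers (COL1A1, COL3A1, DCN) stayed at or under 1.74 CPM. T cell markers reached 24.9 CPM in AMO1, nearly all of it CD3E, with CD3D and CD2 at or under 0.0655 CPM. Monocyte markers reached 9.56 CPM in LP1 (mostly CSF1R), erythroid markers 8.43 CPM in AMO1 and epithelial markers 43.9 CPM in LP1 (mostly KRT18).

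Of the 35 p53 target genes, 34 entered the comparison of levels between lines, a joint edgeR quasi-likelihood fit of the 26436 genes that reached 10 reads in 1 library or more. A Benjamini-Hochberg adjusted p under 0.05 was called. SPATA18, a p53-inducible factor of mitochondrial quality control, had 4 reads in 3 of the 18 libraries, all 3 of them labelled LP1, and was not tested. Over all libraries and per kb of exon, MDM2 was the highest of the 35 with 185 CPM per kb, followed by BTG2 with 115 and CCNG1 with 98.0. At the other end were PLK2 with 1.04 CPM per kb, ACER2 with 0.961 and SPATA18 with 0.00088. MDM2 encodes the ubiquitin ligase that degrades p53, BTG2 an antiproliferative cofactor of mRNA decay and CCNG1 the cyclin G1. FAS, at 1.05 CPM per kb, has an annotated exon length of 29313 bases, which lowers its value per kb.

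In the libraries labelled LP1, 15 of the 34 genes were lower than in every library of the other lines, among them FAS, PMAIP1, BBC3, TP53INP1, the sestrins SESN1 and SESN2, GDF15 and CDKN1A. Between H929 and LP1, 24 of 34 genes were higher in H929 (38.4% of all genes tested were) and 8 were lower (36.2% of all genes). Between AMO1 and LP1, 19 were higher in AMO1 (37.9% of all genes) and 11 lower (37.9%). Both comparisons use the same LP1 libraries. All LP1 libraries lay below all others for these 15 genes, where 22.7% of all genes did so, and above all others for 4 genes (FBXW7, GADD45A, PLK2 and PLK3), where 24.5% of all genes did so. The median log2 difference over the 34 genes was 0.44 for H929 minus LP1 and 0.17 for AMO1 minus LP1, against 0.053 and 0.022 over all genes. The medians of a list of 30 further p53 targets, 29 of them tested, had the other sign, -0.19 for H929 minus LP1 (12 higher in H929 and 14 lower) and -0.15 for AMO1 minus LP1 (12 higher in AMO1 and 15 lower). Scaling by library size only moved the median of all genes to 0.24 and 0.20 in these comparisons, and that of the 34 genes to 0.63 and 0.35. It gave 25 higher and 6 lower of the 34 for H929 against LP1, with 12092 higher and 7833 lower among all genes. For AMO1 against LP1 it gave 23 higher and 8 lower, with 11796 and 8516 among all genes. Under that scaling the called differences of APAF1 and FBXO22 between AMO1 and LP1 changed sign, and no other called level difference did.

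Among the cell death genes the gap to LP1 was widest for FAS, the death receptor CD95. FAS ran from 43.1 to 48.7 CPM in AMO1 and from 39.9 to 51.5 CPM in H929, but from 1.54 to 2.24 CPM in LP1. The log2 difference was 4.55 ± 0.065 for AMO1 minus LP1 (23.5-fold) and 4.50 ± 0.065 for H929 minus LP1 (22.7-fold), with edgeR adjusted p = 1.12e-34 and 2.32e-34. PMAIP1, which encodes the BH3-only protein NOXA, had 25.4 ± 0.749 CPM in AMO1 and 29.4 ± 1.20 CPM in H929 (SD, n = 6), against 2.62 ± 0.268 CPM in LP1, a difference of 3.27 ± 0.059 and 3.49 ± 0.059 log2 units. BBC3, the BH3-only protein PUMA, had 34.9 ± 4.51 CPM in AMO1, 34.6 ± 3.44 CPM in H929 and 5.81 ± 1.06 CPM in LP1 (2.60 ± 0.066 and 2.59 ± 0.066 log2 units). TP53INP1, a stress protein that acts with p53 and in autophagy, had 247 ± 10.2 CPM in AMO1, 261 ± 22.9 CPM in H929 and 56.8 ± 3.62 CPM in LP1, which is 2.12 ± 0.042 and 2.20 ± 0.042 log2 units lower. The LP1 values of all 4 genes lay below those of every library of the other lines, and AMO1 did not differ from H929 beyond the threshold for FAS, BBC3 or TP53INP1 (edgeR adjusted p = 0.413, 0.89 and 0.107).

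The sestrins and GDF15 were also lowest in LP1. SESN1, a stress-induced inhibitor of mTORC1 signalling, had 45.5 ± 2.62 CPM in AMO1, 44.5 ± 2.80 CPM in H929 and 9.98 ± 0.923 CPM in LP1 (2.19 ± 0.049 and 2.16 ± 0.049 log2 units). SESN2, its leucine-sensing relative, had 166 ± 18.3 CPM in AMO1, 129 ± 10.6 CPM in H929 and 40.1 ± 2.68 CPM in LP1, and was also higher in AMO1 than in H929 by 0.36 ± 0.042 log2 units. GDF15, a secreted stress cytokine, had 24.7 ± 3.89 CPM in AMO1 and 7.42 ± 0.939 CPM in H929. In LP1 it had 1 to 12 reads per library (0.136 ± 0.0835 CPM). Its log2 differences were 1.72 ± 0.096 between AMO1 and H929, 7.55 ± 0.17 between AMO1 and LP1 and 5.82 ± 0.19 between H929 and LP1, of which the last 2 rest on 41 LP1 reads in all.

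Fewer targets ran the other way. PLK2, a Polo-like kinase of the stress response, had 14.1 ± 4.25 CPM in LP1 (419 to 1134 reads per library), 0.404 ± 0.132 CPM in H929 and 0.0661 ± 0.0508 CPM in AMO1, where the 6 libraries held 19 reads in all. Its relative PLK3 had 39.0 ± 2.96 CPM in LP1, 10.5 ± 0.825 CPM in H929 and 9.68 ± 1.37 CPM in AMO1, so that AMO1 and H929 lay 2.02 ± 0.060 and 1.89 ± 0.059 log2 units below LP1. GADD45A, a DNA damage protein that restrains CDK1, had 12.8 ± 1.61 CPM in LP1, 7.50 ± 0.604 CPM in H929 and 5.57 ± 0.749 CPM in AMO1 (1.20 ± 0.082 log2 units between AMO1 and LP1, and 0.77 ± 0.078 between H929 and LP1). TRIAP1, which restrains the apoptosome, was higher in the same order, from 21.4 ± 1.37 CPM in AMO1 through 30.3 ± 2.17 in H929 to 35.9 ± 2.59 in LP1. AEN, an apoptosis-enhancing nuclease, had 133 ± 6.62 CPM in AMO1 and did not separate H929 (194.5 ± 7.73 CPM) from LP1 (194 ± 13.9 CPM; edgeR adjusted p = 0.904). CCNG1 was lowest in H929, with 215 ± 28.2 CPM against 315 ± 18.6 CPM in AMO1 and 379 ± 30.1 CPM in LP1. APAF1, the scaffold of the apoptosome, was also lowest in H929, at 17.3 ± 1.27 CPM against 22.7 ± 1.95 in AMO1 and 24.8 ± 0.634 in LP1.

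**Figure D1:**
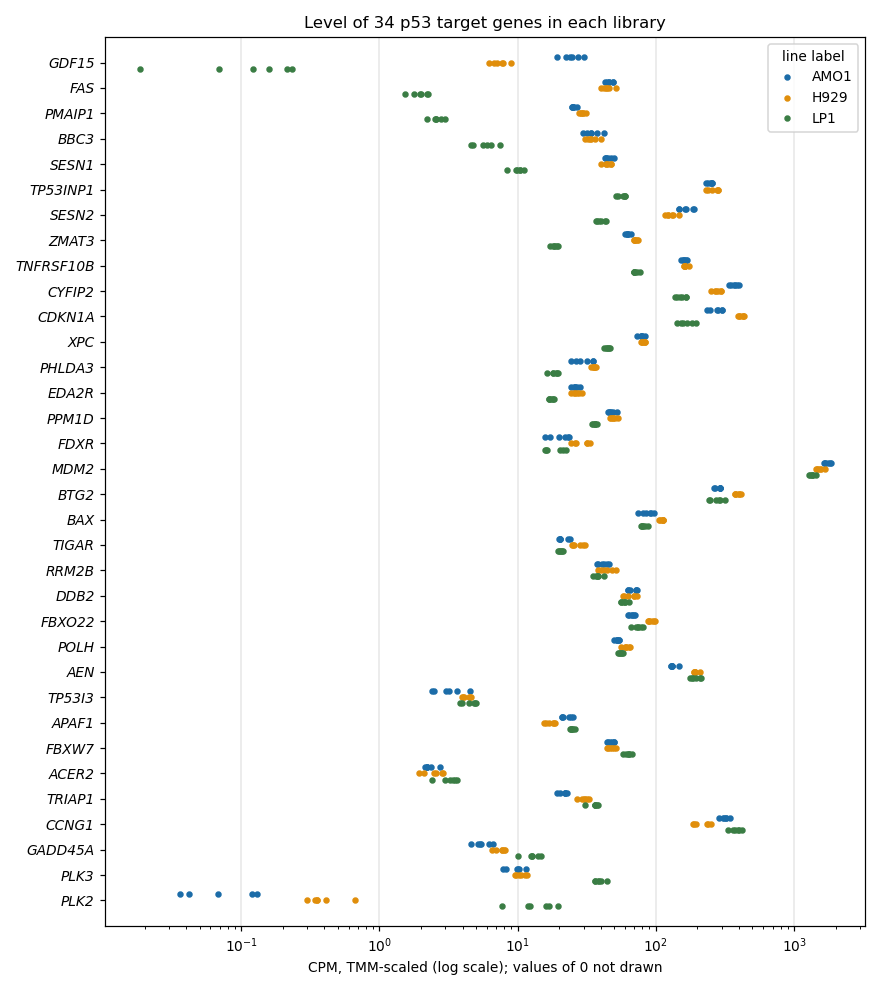
Level of 34 p53 target genes in every library, in TMM-scaled CPM on a log axis, 1 point per library and 1 colour per line label, ordered by the LP1 level relative to the other lines. GDF15, FAS and PMAIP1 at the top lie far lower in the 6 LP1 libraries, PLK3 and PLK2 at the bottom far higher, and 1 AMO1 value of 0 for PLK2 is not drawn.

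CDKN1A encodes p21, the inhibitor of cyclin-dependent kinases through which p53 stops the cell cycle. It had 273 ± 27.3 CPM in AMO1, 413.5 ± 17.0 CPM in H929 and 166 ± 19.4 CPM in LP1, and each pair of lines differed (0.60 ± 0.042 log2 units between H929 and AMO1, 0.72 ± 0.042 between AMO1 and LP1 and 1.32 ± 0.042 between H929 and LP1). MDM2 had 1733 ± 83.3 CPM in AMO1, 1524 ± 89.6 CPM in H929 and 1346.5 ± 55.0 CPM in LP1. Its spread between lines was therefore at most 0.36 ± 0.036 log2 units. Between AMO1 and H929, 6 of the 34 genes were higher in AMO1 (21.2% of all genes) and 15 lower (23.2% of all genes). The largest of these differences were GDF15, CCNG1, CYFIP2, APAF1 and SESN2 on the higher side and PLK2, CDKN1A, AEN, FDXR and TRIAP1 on the lower. CYFIP2, a p53-inducible partner of actin regulators, had 369 ± 22.1 CPM in AMO1, 278 ± 17.9 CPM in H929 and 152 ± 11.2 CPM in LP1. FDXR had 20.3 ± 3.24 CPM in AMO1, 29.0 ± 3.75 CPM in H929 and 18.7 ± 2.99 CPM in LP1.

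Most p53 target genes did not pass the test for the gapmeR label, 30 of 33 in AMO1, 26 of 34 in H929 and 32 of 34 in LP1, and most log2 fold changes were small and below 0. Most genes of any kind did not pass either: over all genes tested, 473 of 22933 passed in AMO1, 1286 of 23499 in H929 and 332 of 23165 in LP1. Effects were tested within each line in its own edgeR quasi-likelihood fit. Below 0, the direction of lower transcript in libraries labelled gN1E, were 23 of 33 log2 fold changes in AMO1 (53.5% of all genes), 26 of 34 in H929 (52.1% of all genes) and 27 of 34 in LP1 (50.3% of all genes). The median log2 fold change was -0.065 in AMO1, -0.084 in H929 and -0.075 in LP1, against -0.016, -0.0096 and -0.0012 over all genes. Single values ran from -0.38 (FDXR) to 0.25 (SESN2) in AMO1, from -0.47 (PLK2) to 0.17 (SESN2) in H929 and from -0.71 (PLK2) to 0.20 (FAS) in LP1. In the per-line edgeR fits, no p53 target gene passed the adjusted p of 0.1 together with a 1.5-fold change in any line. PLK2 in LP1 was 1.63-fold lower in that fit, with an edgeR adjusted p of 0.122. Its adjusted p was 0.0152 by limma-voom and 0.0473 by DESeq2.

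**Figure D2:**
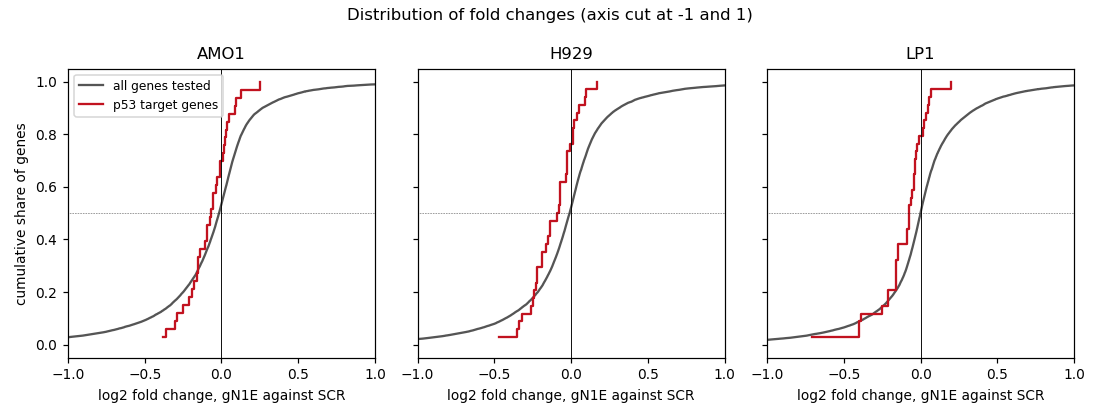
Cumulative distribution of the log2 fold change, gN1E against SCR, of the p53 target genes (red steps) and of all genes tested (grey line) in each line, with the horizontal axis ending at -1 and 1. At the dotted middle line the red curve lies left of the grey one in all 3 panels, at -0.065, -0.084 and -0.075 against -0.016, -0.0096 and -0.0012, and the red curves are steeper than the grey.

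Past the threshold, 2 genes were lower and 1 higher in AMO1, 7 lower and 1 higher in H929, and 2 lower and none higher in LP1. Over all genes tested, 0.419% were lower and 1.64% higher in AMO1, 1.77% and 3.7% in H929, and 0.777% and 0.656% in LP1. Restricted to genes with a mean log2 CPM of at least 2, the counts were 2 of 31 in AMO1 (0.708% of all such genes were lower), 7 of 32 in H929 (2.82%) and 2 of 30 in LP1 (1.37%). An unadjusted p under 0.05 was found for 9 of 33 genes in AMO1 (12.2% of all genes), 14 of 34 in H929 (17.7%) and 8 of 34 in LP1 (13%). In LP1, DESeq2 called 4 p53 target genes lower (1.86% of the genes it gave an adjusted p) and none higher. All libraries labelled gN1E lay below all labelled SCR for 7 of 33 genes in AMO1 (8.5% of all genes), 12 of 34 in H929 (9.57%) and 14 of 34 in LP1 (10.6%). They lay above for 2 genes in AMO1 (9.17%), 1 in H929 (12.2%) and none in LP1 (7.42%). Scaling by library size only gave 1 higher and 5 lower p53 target genes in AMO1 (309 higher and 295 lower genes in all, against 377 and 96 with TMM), 11 lower in H929 (556 higher and 743 lower in all, against 870 and 416) and 2 lower in LP1 (229 and 130 in all, against 152 and 180). In AMO1, where libraries with the same letter deviated together, the replicate letter as a block gave 1 higher and 6 lower genes, where it called 3.38% of all genes higher and 2.69% lower, the added ones being CDKN1A (-0.21 ± 0.046), BBC3 (-0.25 ± 0.063), DDB2 (-0.19 ± 0.052) and GDF15 (-0.30 ± 0.068, edgeR adjusted p = 0.00215). Of the 35 genes, 8 share part of their span with another gene on the same strand (MDM2, BBC3, SESN1, GDF15, PHLDA3, FAS, TIGAR and FBXW7), so that their counts could hold or lose reads of that gene.

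FDXR was the one p53 target gene that passed the threshold in all 3 lines. It encodes ferredoxin reductase, the mitochondrial enzyme that hands electrons to ferredoxin for steroid and iron-sulfur cluster synthesis, and it lies at chr17:74862497-74873031 on the minus strand (ENSG00000161513.12). Under SCR it stood at 23.3, 22.2 and 23.5 CPM in AMO1, against 19.8, 17.1 and 15.9 CPM under gN1E. In H929 it stood at 31.8, 33.2 and 32.0 CPM under SCR and at 24.3, 26.2 and 26.6 CPM under gN1E, and in LP1 at 21.3, 22.5 and 20.2 CPM under SCR and at 16.2, 16.2 and 15.8 CPM under gN1E. In each line the 3 values under gN1E lay below the 3 under SCR. The log2 fold change was -0.38 ± 0.086 in AMO1, -0.34 ± 0.059 in H929 and -0.39 ± 0.070 in LP1, or 0.771, 0.788 and 0.763 of the SCR level, with edgeR adjusted p = 0.0213, 0.000253 and 0.00614. The effects did not differ between lines beyond their errors: AMO1 minus H929 was -0.044 ± 0.10, AMO1 minus LP1 0.035 ± 0.10 and H929 minus LP1 0.080 ± 0.10 log2 units (edgeR adjusted p = 0.996, 0.985 and 0.858). Of the 19934 genes tested in all 3 lines, 6 (0.0301%) were past the threshold and lower in each, FDXR among them. The p53 target genes were chosen with earlier results of these data known, so this share is a description and not a test. In AMO1 the adjusted p was 0.0553 without SCR A, 0.121 without SCR D, 0.113 without gN1E C and 0.204 without gN1E D, and in LP1 it was 0.0525 without SCR B, with fold changes from -0.47 to -0.31 over all libraries left out in turn in the 3 lines. It was 0.0523 in AMO1 by limma-voom.

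**Figure D3:**
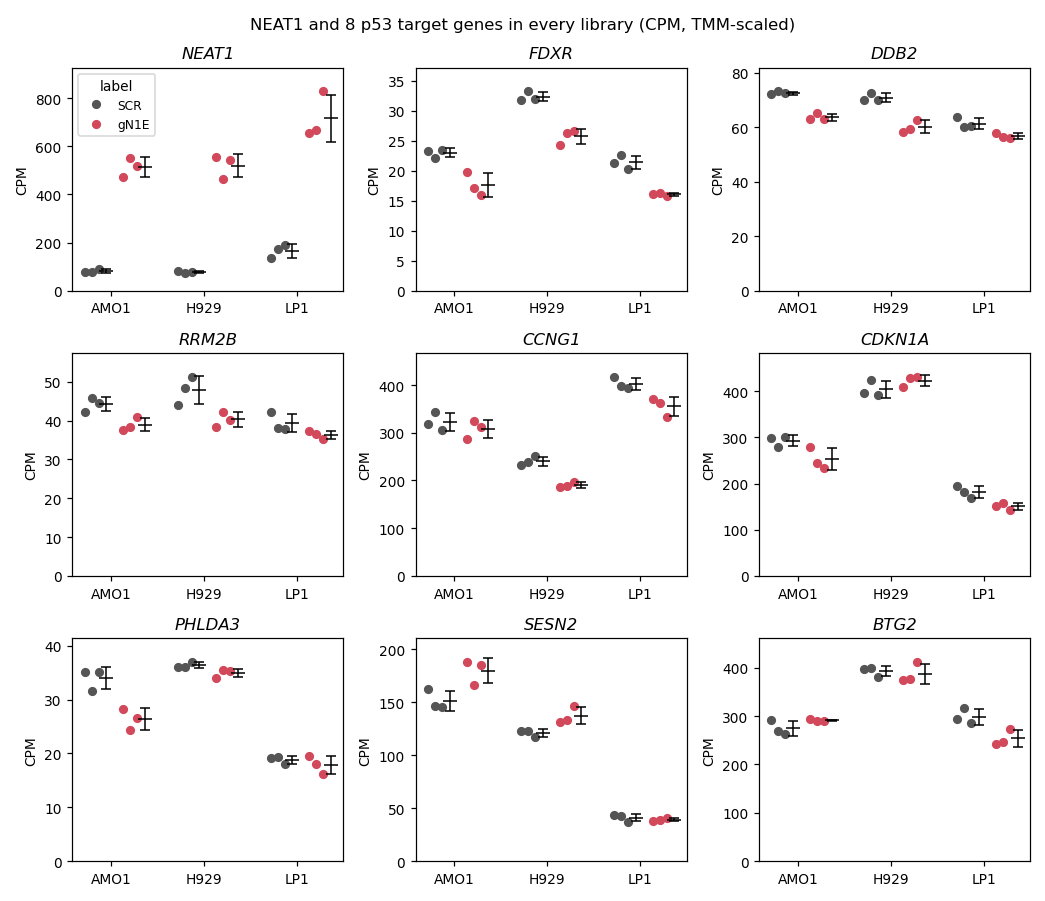
CPM of NEAT1 and 8 p53 target genes in every library, by line label on the horizontal axis, with grey points for libraries labelled SCR, red points for gN1E, and the mean ± SD (n = 3) beside each group. The gN1E points of FDXR, DDB2 and RRM2B lie below the SCR points in each line, those of CCNG1 in H929 and LP1, and those of SESN2 lie above in AMO1 and H929.

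Among the DNA repair genes, DDB2 and RRM2B shared with FDXR the separation of labels in all 3 lines, which 3 of 33 p53 target genes and 0.431% of the 19934 genes showed. DDB2 (ENSG00000134574.12, chr11:47214465-47239217) encodes the damage-binding protein that starts nucleotide excision repair of ultraviolet lesions. It stood at 72.1, 73.1 and 72.5 CPM under SCR and 62.9, 65.1 and 62.9 CPM under gN1E in AMO1. In H929 it stood at 69.9, 72.7 and 70.1 CPM under SCR and 58.4, 59.2 and 62.8 CPM under gN1E, and in LP1 at 63.8, 60.0 and 60.3 CPM under SCR and 57.8, 56.4 and 56.0 CPM under gN1E. DDB2 fell by 0.25 ± 0.051 log2 units in H929 (edgeR adjusted p = 0.00224), and its values of -0.19 ± 0.057 in AMO1 and -0.091 ± 0.051 in LP1 did not pass (edgeR adjusted p = 0.123 and 0.471), while with the replicate block and in the joint fit the AMO1 value passed (edgeR adjusted p = 0.018 and 0.0284). RRM2B encodes the p53-inducible subunit of ribonucleotide reductase, which supplies deoxynucleotides for repair. It stood at 42.3, 45.8 and 44.7 CPM under SCR and 37.5, 38.5 and 40.8 CPM under gN1E in AMO1. In H929 it stood at 44.1, 48.4 and 51.3 CPM under SCR and 38.4, 42.3 and 40.3 CPM under gN1E, and in LP1 at 42.1, 38.0 and 37.9 CPM under SCR and 37.2, 36.7 and 35.1 CPM under gN1E. RRM2B fell by 0.26 ± 0.059 log2 units in H929 (edgeR adjusted p = 0.00619), where it was past the threshold with any library left out, and had -0.18 ± 0.066 in AMO1 and -0.092 ± 0.057 in LP1 (edgeR adjusted p = 0.219 and 0.531). The other repair genes, XPC and POLH, lay between -0.069 and 0.037 in the 3 lines.

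Among the genes grouped here under arrest of the cell cycle, 1 of 6 was lower in H929 (CCNG1, with 1.77% of all genes lower) and 1 of 6 in LP1 (CDKN1A, with 0.777%). Below 0 were 4 of 5 fold changes in AMO1 (53.5% of all genes), 5 of 6 in H929 (52.1%) and 6 of 6 in LP1 (50.3%). CCNG1 (chr5:163437569-163446151) stood at 233, 238 and 250.5 CPM under SCR and 187, 188 and 197 CPM under gN1E in H929. In AMO1 it stood at 319, 343 and 306 CPM under SCR and 288, 324 and 312 CPM under gN1E, and in LP1 at 418, 397 and 393 CPM under SCR and 372, 362 and 332 CPM under gN1E. The labels were apart in H929 and LP1 and overlapped in AMO1. CCNG1 fell by 0.35 ± 0.047 log2 units in H929 (edgeR adjusted p = 7.99e-06), and had -0.16 ± 0.049 in LP1 and -0.065 ± 0.058 in AMO1 (edgeR adjusted p = 0.122 and 0.712). CDKN1A (chr6:36676460-36687337) stood at 194, 182 and 169 CPM under SCR and 151, 158 and 143 CPM under gN1E in LP1. In AMO1 it stood at 299, 279 and 299.9 CPM under SCR and 279.7, 245 and 234 CPM under gN1E, and in H929 at 397, 424 and 391 CPM under SCR and 409.8, 428 and 431 CPM under gN1E. CDKN1A fell by 0.25 ± 0.052 log2 units in LP1 (edgeR adjusted p = 0.016) and had -0.21 ± 0.062 in AMO1 (edgeR adjusted p = 0.118) and 0.054 ± 0.048 in H929 (edgeR adjusted p = 0.623). Its LP1 call was lost without SCR A (0.125), SCR B (0.0808), gN1E A (0.0567) or gN1E D (0.0699). The AMO1 value passed in the joint fit (edgeR adjusted p = 0.0469), by library size only (0.0163), with no filter (0.00807), with the replicate block (0.00149) and without gN1E A (0.00965).

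The effect on CDKN1A differed between H929 and LP1, by 0.34 ± 0.083 log2 units (edgeR adjusted p = 0.0401), in a comparison in which 0.874% of all genes passed. BTG2 differed between AMO1 and LP1, by 0.32 ± 0.076 log2 units (edgeR adjusted p = 0.0334), where 0.741% of all genes passed. BTG2 stood at 292, 269.6 and 263 CPM under SCR and 293, 291 and 290.3 CPM under gN1E in AMO1. In LP1 it stood at 294, 317 and 285 CPM under SCR and 241, 247 and 273 CPM under gN1E, and in H929 at 398, 399 and 381 CPM under SCR and 374, 376 and 412 CPM under gN1E. The LP1 labels were apart and those of H929 overlapped, and no within-line value of BTG2 passed in the per-line edgeR fits (edgeR adjusted p = 0.544 in AMO1, 0.802 in H929 and 0.0528 in LP1). The LP1 value passed by DESeq2 (adjusted p = 0.0221), in the joint edgeR fit (0.0244) and in edgeR with no filter (0.00251). Between AMO1 and H929 edgeR called 0 of 34 p53 target genes and 0% of all genes, with 4 of 34 and 1771 of 26436 at an unadjusted p under 0.05. DESeq2 called 5 genes and limma-voom 0 there, none of them a p53 target gene. Both calls depended on single libraries and on scaling. By library size only, each difference was 0.23 log2 units (edgeR adjusted p = 0.222 for CDKN1A and 0.211 for BTG2). The CDKN1A call was also lost with RLE size factors (0.0732), with the filterByExpr filter (0.0554) and by limma-voom (0.0573), whereas that of BTG2 passed in each of these. With 1 library left out, the adjusted p reached 0.164 for CDKN1A (without LP1 SCR A) and 0.148 for BTG2 (without LP1 SCR B), and it was over 0.05 in 8 and 9 of 18 such fits.

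The remaining arrest genes did not pass within a line in the per-line edgeR fits. PLK2 in LP1 stood at 16.8, 19.6 and 16.2 CPM under SCR and 7.77, 12.0 and 12.2 CPM under gN1E, with no overlap and a log2 fold change of -0.71 ± 0.17 (edgeR adjusted p = 0.122). This value passed by DESeq2 (adjusted p = 0.0473), limma-voom (0.0152), the joint edgeR fit (0.00892), the replicate block (0.0116) and with no filter (1.28e-12). PLK3 had -0.30 ± 0.11 in AMO1, -0.16 ± 0.086 in H929 and -0.074 ± 0.063 in LP1. GADD45A had -0.073 ± 0.14, -0.14 ± 0.099 and -0.21 ± 0.096 in the same order.

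Metabolic and redox targets other than FDXR moved both ways. TIGAR, which diverts glucose from glycolysis, fell in H929 by 0.24 ± 0.059 log2 units (edgeR adjusted p = 0.0131), from 28.3, 29.5 and 30.5 CPM under SCR to 24.7, 25.2 and 25.6 CPM under gN1E. It stood at 20.4, 23.9 and 23.3 CPM under SCR and 20.4, 19.8 and 20.3 CPM under gN1E in AMO1, and at 21.1, 20.9 and 20.5 CPM under SCR and 19.7, 20.0 and 20.3 CPM under gN1E in LP1. In those lines its log2 fold change was -0.16 ± 0.081 and -0.038 ± 0.066. The H929 call was lost without SCR C (0.0566), gN1E A (0.0538) or gN1E B (0.0651). SESN2 was the only p53 target gene past the threshold in the direction of NEAT1, and it was so in both AMO1 and H929. It stood at 162, 146 and 146 CPM under SCR and 188, 166 and 185 CPM under gN1E in AMO1. In H929 it stood at 123, 123 and 117 CPM under SCR and 132, 134 and 147 CPM under gN1E, and in LP1 at 43.4, 42.975 and 37.0 CPM under SCR and 37.6, 39.0 and 40.4 CPM under gN1E. SESN2 rose by 0.25 ± 0.061 log2 units in AMO1 (edgeR adjusted p = 0.0322) and by 0.17 ± 0.050 in H929 (edgeR adjusted p = 0.0418), and had -0.056 ± 0.061 in LP1 (edgeR adjusted p = 0.756). Its effect in AMO1 exceeded that in LP1 by 0.33 ± 0.087 log2 units, which did not pass (edgeR adjusted p = 0.0716). With 1 library left out the H929 rise was past the threshold without gN1E A (0.0336) but not without SCR A (0.11), SCR B (0.0637), SCR C (0.111), gN1E B (0.0683) or gN1E C (0.244), and the AMO1 rise was lost without SCR C (0.0791), SCR D (0.191), gN1E A (0.0979) or gN1E D (0.232). The H929 rise was also lost in the joint fit (edgeR adjusted p = 0.0917), by library size only (0.18), by limma-voom (0.0701) and with the replicate block (0.0903), and the AMO1 rise by limma-voom (0.0517). Its relative SESN1 had -0.096 ± 0.066, -0.15 ± 0.055 and -0.16 ± 0.091 in AMO1, H929 and LP1. The H929 value passed by library size only (edgeR adjusted p = 0.036) and with the trend over genomic span removed (0.0426). TP53I3, a quinone oxidoreductase, had -0.14 ± 0.21, -0.089 ± 0.12 and -0.16 ± 0.12.

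Cell death genes were lower in part. In the mitochondrial pathway, 2 of 7 tested genes fell in H929 (1.77% of all genes), TP53INP1 and BBC3, and none passed in AMO1 or LP1 in the per-line edgeR fits. TP53INP1 stood at 284, 282 and 277 CPM under SCR and 232, 238 and 253 CPM under gN1E in H929. In AMO1 it stood at 249.7, 255 and 230.1 CPM under SCR and 239, 250.3 and 256 CPM under gN1E, and in LP1 at 57.7, 59.8 and 53.1 CPM under SCR and 51.5, 60.1 and 58.5 CPM under gN1E. It fell by 0.23 ± 0.047 log2 units in H929 (edgeR adjusted p = 0.00194), and its labels overlapped in AMO1 and LP1, where the log2 fold changes were 0.022 ± 0.055 and 0.018 ± 0.061. BBC3 stood at 40.4, 34.1 and 36.6 CPM under SCR and 32.1, 30.9 and 33.3 CPM under gN1E in H929. In AMO1 it stood at 42.4, 33.9 and 37.6 CPM under SCR and 34.2, 31.8 and 29.8 CPM under gN1E, and in LP1 at 7.41, 6.45 and 6.04 CPM under SCR and 4.58, 5.61 and 4.77 CPM under gN1E. BBC3 fell by 0.22 ± 0.063 log2 units in H929 (edgeR adjusted p = 0.0381), and had -0.25 ± 0.082 in AMO1 (edgeR adjusted p = 0.177) and -0.40 ± 0.11 in LP1 (edgeR adjusted p = 0.0956). The H929 call was lost without SCR A (0.309), SCR C (0.0678), gN1E A (0.0774) or gN1E B (0.217), in the joint fit (0.196), by limma-voom (0.0855) and with the replicate block (0.0609). BBC3 passed in AMO1 by library size only (edgeR adjusted p = 0.0414), with no filter (0.0254), with the replicate block (0.00839) and without SCR C (0.0329). In LP1 it passed in the joint fit (edgeR adjusted p = 0.0397), with no filter (0.0342) and without SCR D (0.0438). The other genes of this pathway, BAX, PMAIP1, APAF1, AEN and TRIAP1, had log2 fold changes from -0.19 to 0.065 in the 3 lines, of which APAF1 in H929 passed by library size only (edgeR adjusted p = 0.0474).

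PHLDA3, an inhibitor of AKT at the membrane, was past the threshold and lower in AMO1, where 0.419% of all genes were. It was the only one of the 6 death receptor and other death genes past the threshold in any line in the per-line edgeR fits. In AMO1 it stood at 35.2, 31.7 and 35.2 CPM under SCR and 28.3, 24.4 and 26.5 CPM under gN1E. It had 36.1, 36.0 and 37.0 CPM under SCR and 34.1, 35.6 and 35.3 CPM under gN1E in H929, and 19.1, 19.4 and 17.957 CPM under SCR and 19.6, 17.982 and 16.3 CPM under gN1E in LP1. PHLDA3 fell by 0.36 ± 0.076 log2 units in AMO1 (edgeR adjusted p = 0.011), and had -0.069 ± 0.055 in H929 and -0.045 ± 0.076 in LP1. The difference in effect was -0.30 ± 0.096 against H929 and -0.29 ± 0.099 against LP1 (edgeR adjusted p = 0.621 and 0.209). The AMO1 call was lost without SCR D (0.0865), gN1E C (0.104) or gN1E D (0.07). FAS had -0.11 ± 0.063 in AMO1, -0.19 ± 0.061 in H929 and 0.20 ± 0.18 in LP1. The H929 value passed by library size only (edgeR adjusted p = 0.0185) and with no filter (0.0382). It also passed with the trend over genomic span removed (edgeR adjusted p = 0.0478) and without SCR B (0.023). TNFRSF10B, the TRAIL receptor DR5, lay within 0.015 of 0 in each line. EDA2R, CYFIP2 and ACER2 ran from -0.32 to 0.099.

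The genes grouped here under feedback on p53 (MDM2, PPM1D and FBXO22) did not pass in the per-line edgeR fits. MDM2 stood at 1669, 1839 and 1681 CPM under SCR and 1637, 1757 and 1816 CPM under gN1E in AMO1. In H929 it stood at 1532, 1568 and 1676 CPM under SCR and 1430, 1459 and 1480 CPM under gN1E, and in LP1 at 1434, 1368 and 1354 CPM under SCR and 1347, 1298 and 1279 CPM under gN1E. Its log2 fold change was 0.0086 ± 0.056 in AMO1, -0.14 ± 0.051 in H929 and -0.062 ± 0.046 in LP1 (edgeR adjusted p = 0.972, 0.116 and 0.621), with no overlap of labels in H929 and LP1. In H929 MDM2 passed by library size only (-0.19, edgeR adjusted p = 0.0218) and by limma-voom (-0.14, adjusted p = 0.0495), in 2 of 9 alternatives other than leaving out a library. PPM1D, the phosphatase WIP1, and FBXO22, an F-box protein that targets p53 for degradation, lay between -0.035 and 0.032. GDF15 had -0.29 ± 0.099 in AMO1, which passed by library size only (edgeR adjusted p = 0.0295), with no filter (0.00888) and with the replicate block, and -0.22 ± 0.11 in H929, and -0.40 ± 0.74 in LP1 on its few reads. FBXW7, a ubiquitin ligase subunit, was the only p53 target gene with a fold change above 0 in all 3 lines (0.13, 0.093 and 0.053), where 17.8% of all genes had one, and 15 of 33 were below 0 in all 3, against 18.7% of all genes. The splicing regulator ZMAT3 stayed between -0.027 and 0.050.

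**Figure D4:**
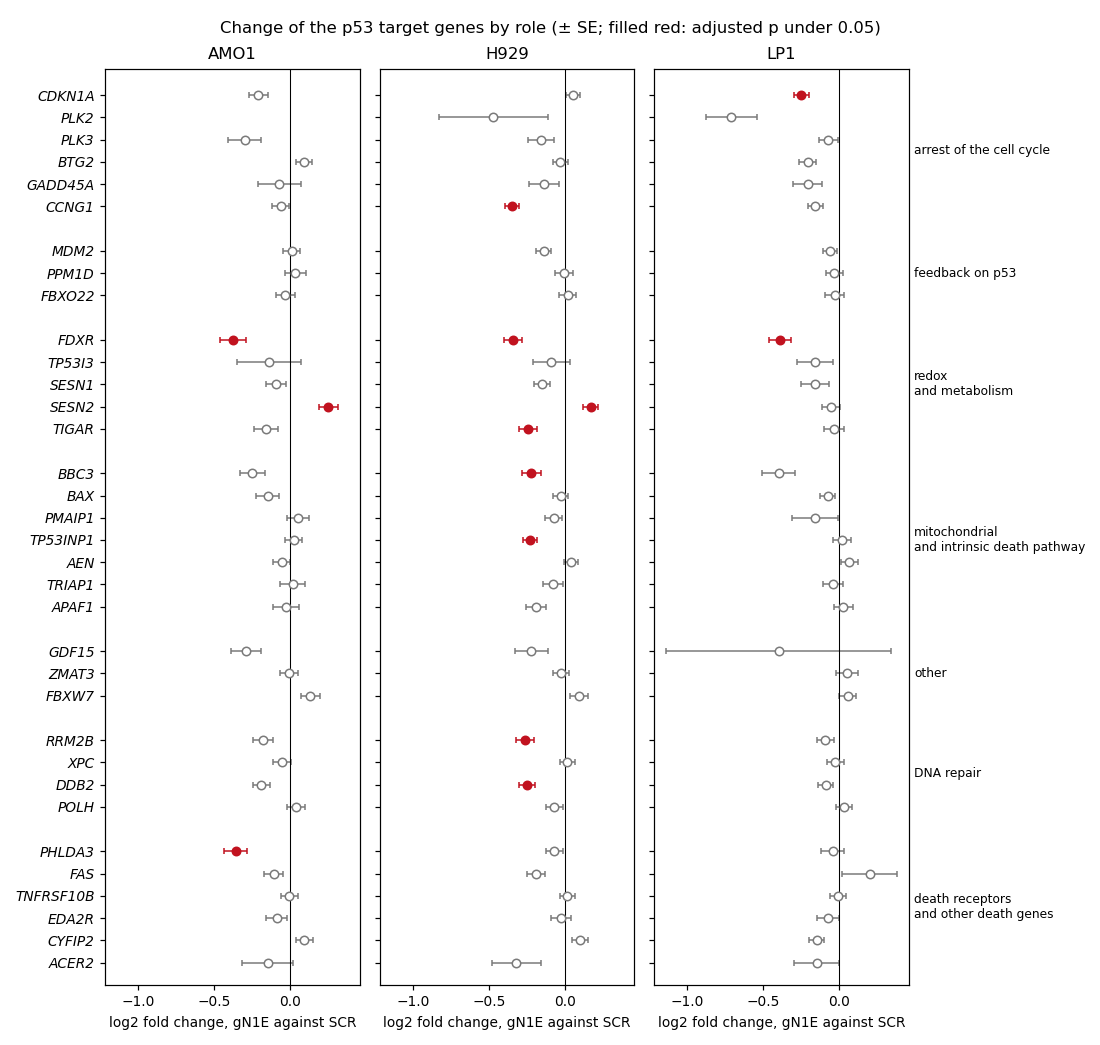
Log2 fold change ± SE of 34 p53 target genes, gN1E against SCR, in each line, grouped by role, with filled red points for an adjusted p under 0.05 and open grey points otherwise. FDXR is red in all 3 panels, between -0.39 and -0.34, SESN2 is red on the right of 0 in AMO1 and H929, and 7 genes are red on the left in H929. PLK2 has no AMO1 value.

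Genes around p53 were read from 3 further lists. The first held 25 genes that act around p53, its regulators among them. In edgeR 2 rose in AMO1 (1.64% of all genes did) and 3 in H929 (3.7% of all genes), and none fell there. DESeq2 called 4 genes of this list in AMO1 and 3 in H929, and limma-voom called 3 in each. The shares of all genes that DESeq2 and limma-voom called there are not given, so these counts describe the list only. None of the 24 tested in LP1 passed in edgeR, where 4 had an unadjusted p under 0.05 (13% of all genes), DESeq2 called 1 and limma-voom 0. KAT2B, the acetyltransferase PCAF, rose by 0.89 ± 0.075 log2 units in AMO1 and 0.68 ± 0.065 in H929 (edgeR adjusted p = 1.48e-07 and 1.55e-08). HIPK2, a kinase that phosphorylates p53, rose by 0.29 ± 0.060 in AMO1 and 0.43 ± 0.048 in H929 (edgeR adjusted p = 0.0111 and 3.15e-07). The AMO1 call was lost without SCR D (0.0932) or gN1E A (0.0583), and with the trend over genomic span removed (0.115). The effect on KAT2B was smaller in LP1 than in AMO1 or H929, by 0.72 ± 0.084 and 0.52 ± 0.084 log2 units, and that on HIPK2 was smaller in LP1 than in H929 by 0.38 ± 0.075 (edgeR adjusted p = 2.18e-06, 0.000368 and 0.00482), the last of which was lost by library size only (0.074). PRKDC, the DNA-dependent protein kinase, rose in H929 by 0.21 ± 0.049 log2 units (edgeR adjusted p = 0.00798, and 0.0971 without SCR A or 0.0659 without gN1E B), and its effect did not differ between lines beyond the threshold.

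Of 30 further p53 targets, 1 of 28 tested was lower in AMO1 (PIDD1, -0.37 ± 0.091, edgeR adjusted p = 0.0369), where 0.419% of all genes were lower. The PIDD1 call was lost by limma-voom (adjusted p = 0.12) and without SCR A (0.14), SCR D (0.21), gN1E C (0.182) or gN1E D (0.222). In H929 3 of 29 were higher (3.7% of all genes) and 2 lower (1.77% of all genes). None of 28 passed in LP1 in edgeR, DESeq2 or limma-voom, with 3 at an unadjusted p under 0.05, against 13% of all genes. The median log2 fold changes of this list were -0.044 in AMO1, -0.050 in H929 and -0.069 in LP1, against -0.016, -0.0096 and -0.0012 over all genes. The effect on TNFAIP8, which regulates cell death, was higher in AMO1 than in LP1 by 0.31 ± 0.073 log2 units (edgeR adjusted p = 0.0315), the 1 gene of this list whose effect differed between lines, and this call was lost by library size only (0.242), with no filter (0.0536) and in 8 of 18 fits with 1 library left out. The H929 genes were E2F7 (0.24 ± 0.059), ASCC3 (0.17 ± 0.050) and DCP1B (0.27 ± 0.072) on the higher side, and ORAI3 (-0.51 ± 0.12, 3.52 against 4.97 CPM) and TRIM22 (-1.05 ± 0.27, 0.564 against 1.17 CPM) on the lower. Of these, ASCC3 was lost by limma-voom (adjusted p = 0.0541) and with the trend over genomic span removed (edgeR adjusted p = 0.474). By library size only ASCC3 (edgeR adjusted p = 0.177), E2F7 (0.074) and DCP1B (0.0743) were lost. TRIM22 was lost in the joint fit (edgeR adjusted p = 0.06) and ASCC3 with the replicate block (0.0701), and each of the 5 calls was lost in 1 or more fits with 1 library left out.

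Of 30 cell cycle genes that p53 lowers through p21 and the DREAM complex, none passed in AMO1 or LP1 in edgeR, DESeq2 or limma-voom (5 and 8 had an unadjusted p under 0.05, against 12.2% and 13% of all genes). In H929 3 rose, where 3.7% of all genes did, and 1 fell, where 1.77% did. FOXM1 (0.20 ± 0.050), CDC25A (0.17 ± 0.048) and MCM5 (0.17 ± 0.052) rose and CDK1 fell by 0.20 ± 0.055 log2 units (edgeR adjusted p = 0.0148, 0.0318, 0.0462 and 0.0271). Limma-voom kept FOXM1 and CDC25A and lost MCM5 (adjusted p = 0.0693) and CDK1 (0.0659). By library size only FOXM1 (edgeR adjusted p = 0.0625), CDC25A (0.151) and MCM5 (0.137) were lost, in the joint fit CDK1 (0.095) and MCM5 (0.068), and with the replicate block CDK1 (0.065) and CDC25A (0.0667). Each of the 4 calls was lost in 3 or more of the 6 fits with 1 library left out. The median log2 fold change of this list was 0.077 in AMO1, 0.012 in H929 and -0.055 in LP1, against -0.016, -0.0096 and -0.0012 over all genes. Below 0 were 6, 13 and 23 of the 30 values, against 53.5%, 52.1% and 50.3% of all genes.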

How the data were processed

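Total RNA was sequenced in 18 libraries, 3 for each of 6 combinations of line and gapmeR label. The authors deposited unnormalized read counts for each gene, obtained on hg38 by STAR 2.7.10a and featureCounts 1.6.4 (GENCODE release 43) per the submitters' processing notes. Library totals ran from 28061606 to 69937229. The count tables list 62703 genes, of which 62686 matched a symbol.

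From the counts, edgeR 4.0.16 (R 4.3.3, TMM, robust quasi-likelihood fit, Benjamini-Hochberg adjustment over all genes tested) was fitted per line for gN1E against SCR, and jointly over all libraries for line levels and for differences in effect, keeping genes that reached 10 reads in 1 or more libraries of the fit. The fits were tested on simulated data. Alternatives were DESeq2 1.42.0, limma-voom (limma 3.58.1), RLE or library-size scaling, other filters, a joint fit, the replicate letter as a block, a stricter rule (adjusted p under 0.1 and a change of at least 1.5-fold), SCR or gN1E libraries alone for levels, and each library left out. Correcting every library for its trend over genomic span was chosen after seeing the data. Same-letter libraries deviated together in AMO1 (correlations 0.272, 0.2 and 0.14 across 12973 genes), which pairs them by the data, not by the labels, and did not in every letter of H929 or LP1.

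The 35 genes and the other lists were chosen with earlier results of these data known. Values per library are given for NEAT1, FDXR, CDKN1A, MDM2 and every gene past the threshold in a line. A few further values are not reported here. Group levels are given for the 5 largest differences between lines in each direction, the 3 highest and 3 lowest levels per length, and genes whose effect differed between lines. The values of BTG2 and PLK2 by library were added after they were seen. Promoters and motifs were read with Python 3.11.15 and pandas 2.3.3, and figures drawn with matplotlib 3.10.9.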

Additional observations from a re-analysis of the deposited data

Results flagged for a closer look

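The effect of the gapmeR label on BTG2 was 0.32 log2 units higher in AMO1 than in LP1, and that on CDKN1A was 0.34 log2 units higher in H929 than in LP1. Both are listed here because an interaction test of the difference itself passed (edgeR adjusted p = 0.0334 and 0.0401). By library size only neither passed (0.211 and 0.222), and the CDKN1A difference was also lost with RLE size factors (0.0732), the filterByExpr filter (0.0554) and limma-voom (0.0573). With 3 libraries per group, single libraries were not tested as outliers.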

How the results depend on the processing

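In AMO1 the count of p53 target genes past the threshold moved from 3 to 5 in the joint fit, 6 by library size only, 1 by limma-voom, 6 with no filter and 7 with the replicate block, and ran from 0 to 4 with 1 library left out (0 without SCR D or gN1E D). In H929 the count of 8 ran from 5 to 8 with 1 library left out and was 11 by library size only. In LP1 the count of 2 was 4 by DESeq2, 5 in the joint fit, 5 with no filter, and 0 (without SCR B) to 5 (without SCR D) with 1 library left out. The calls over all genes moved too. In the main fit and by library size only they were 473 and 604 in AMO1, 1286 and 1299 in H929, and 332 and 359 in LP1. For the effect they were 196 and 148 in AMO1 minus LP1, and 231 and 156 in H929 minus LP1. For most other settings no such number is given, so shifts in those counts are not set against shifts over all genes. In the main edgeR fits, an adjusted p under 0.1 and a change of at least 1.5-fold gave 0 in each line and 0 for each difference in effect. For levels they gave 3 for AMO1 against H929, 18 for AMO1 against LP1 and 19 for H929 against LP1. No share of all genes is given under this rule, so these counts are not set against one. At an adjusted p under 0.05 alone, 11731, 20054 and 19732 of all 26436 genes were called in the same comparisons. PLK2 in LP1, 1.63-fold lower in the per-line fit, had an adjusted p of 0.0152 by limma-voom, 0.0473 by DESeq2 and 0.00892 in the joint edgeR fit. The median log2 fold change moved to -0.10 in AMO1 and -0.13 in H929 by library size only, and ran from -0.08 to -0.029 and from -0.13 to -0.076 with 1 library left out. In LP1 the median of -0.075 was -0.047 by library size only and -0.097 in the joint fit, and ran from -0.087 (without gN1E A) to -0.046 (without SCR A). For AMO1 minus LP1 the count of 1 was 3 by DESeq2, 0 by library size only, 2 with no filter and 0 to 2 with 1 library left out. For H929 minus LP1 it was 0 by RLE, filterByExpr, library size only and limma-voom, 2 with no filter, 2 with the replicate block and 0 to 3 with 1 library left out. The letters paired no libraries in H929, and in LP1 only those with the letter A deviated together. The replicate block dropped SESN2 (edgeR adjusted p = 0.0903) and BBC3 (0.0609) in H929, giving 6 calls, gave 3 in LP1 in place of 2, and left FDXR past the threshold in both lines. Removing the trend with genomic span gave 3, 10 and 2 calls and medians of -0.06, -0.08 and -0.058 in AMO1, H929 and LP1. Values near 0 changed sign: MDM2 in AMO1 (-0.029 by library size only, -0.0039 with no filter, -0.026 to 0.056 with 1 library left out), TP53INP1 in AMO1 (-0.015 by library size only, -0.019 to 0.052 with 1 left out) and in LP1 (-0.0044 in the joint fit, -0.023 to 0.085 with 1 left out), and PHLDA3 in LP1 (-0.11 to 0.016 with 1 left out). The cause of these changes was not tested. The values of GDF15 in LP1, PLK2 in AMO1 and SPATA18 in every line rest on few or no reads.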
